A study of Homo sapiens with 6 samples.

Results

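The genes described here are 47 genes of protein folding in the endoplasmic reticulum (ER) and of the integrated stress response, chosen by name and matched by gene symbol to Ensembl gene IDs in 6 tables of read counts. All 47 were among the 28979 gene IDs of the tables. They were read in 7 sets by role: 15 ER chaperones and foldases, 5 genes of ER-associated degradation, 5 stress sensors with XBP1, 10 transcription factors and feedback genes of the integrated stress response, 4 genes of amino acid synthesis, 3 mitochondrial folate enzymes and 5 amino acid transporters. The first 3 sets, with 25 genes, are called the ER folding arm, and the other 4 sets, with 22 genes, the ATF4 arm. The tables come from MDA-MB-231, an established breast cancer cell line of human origin with mesenchymal features, in 3 libraries labelled Ang and 3 labelled Con. The series design says that these cancer cells received exosomes, small vesicles released by cells, from hypertrophic or from normal cardiomyocytes, in a search for genes targeted by the microRNAs those vesicles may carry. No label says which vesicles the Ang and Con libraries received, nor gives a dose, a time or separate cultures. The groups are therefore called by their labels, and every p-value rests on the spread among 3 libraries a group, a spread that may be technical. In bulk libraries, less RNA per cell and fewer cells that make it cannot be told apart.

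Secretory and membrane proteins fold in the ER with the help of chaperones and of enzymes that form disulfide bonds, and chains that fail to fold are returned to the cytosol for degradation. When unfolded chains build up, the sensors ATF6, IRE1 (encoded by ERN1) and PERK (encoded by EIF2AK3) switch on chaperone genes and slow translation. PERK and the amino acid sensor GCN2 (encoded by EIF2AK4) both phosphorylate the initiation factor eIF2, which favours translation of the transcription factor ATF4, and ATF4 in turn drives genes of amino acid supply. Part of this control acts on splicing (XBP1) or on translation (ATF4) and cannot be read from counts per gene.

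Library totals were 3482629 to 3961442 counts in Ang and 3369212 to 5437190 counts in Con. The 47 genes held 0.658%, 0.706% and 0.652% of the counts in Ang replicates 1 to 3, and 0.683%, 0.820% and 0.598% in Con replicates 1 to 3. The share was thus highest in Con replicate 2 and lowest in Con replicate 3, with the Ang libraries between them. Con replicate 2 stands apart in a further measure. Over 250 pairs of a non-coding gene lying under a protein-coding gene on the other strand, the count density per base of the non-coding gene was, at the median, 34.98, 32.9 and 35.4 in Ang replicates 1 to 3, and 39.3, 23.2 and 41.1 in Con replicates 1 to 3, times that of the coding gene. The labels describe a library preparation with no step that marks the strand, and the strand setting of the counter is not given in the sources used here. Counts of a gene are therefore uncertain as a measure of that gene's own RNA, and the part of the strand ratio in the results below was not tested.

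The members shared an order of libraries within Con. Of the 44 that passed the filter on low counts, 24 (54.5%) had their highest value in Con replicate 2, against 19.9% of all 14547 tested genes. A further 17 of the 44 (38.6%) had their lowest value in Con replicate 3, against 20.5% of all tested genes. Among the 22 tested members with no exon base under an exon of the other strand, 16 were highest in Con replicate 2 (72.7%, against 26.5% of the 6956 tested genes of that kind). Summed over its genes, the ER folding arm had 5777, 6042 and 5825 CPM in Ang replicates 1 to 3, against 6027, 6369 and 5430 CPM in Con replicates 1 to 3. The ATF4 arm summed to 944, 1013 and 947 CPM in Ang, against 909, 1172 and 909 CPM in Con. In both arms the Ang sums lay inside the Con range. This order was not particular to the members. The 79 other pathway genes given below summed to 4181, 4268 and 4127 CPM in Ang, against 4177, 4521 and 3909 CPM in Con. Among their lists, that of translocation and signal peptidase genes was instead highest in Con replicate 1, at 1044 CPM. The members' median coefficient of variation was 10.6% in Ang and 16.01% in Con, where that of all tested genes was 18.2% in Ang and 23.4% in Con. Among genes of at least 50 CPM the medians were closer. They were 7.25% in Ang and 14.3% in Con for members, and 8.25% and 17.3% for all tested genes. Values are given below for each library, so that this spread within Con can be seen beside each difference between groups.

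**Figure D1:**
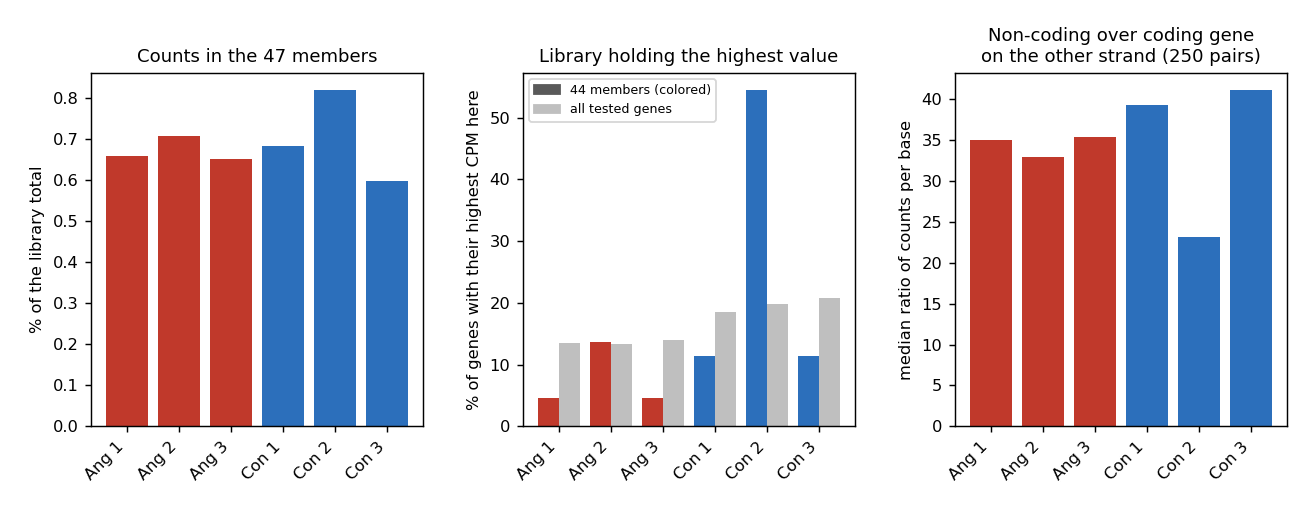
Left, percent of each library's counts that fell in the 47 members. Middle, percent of the 44 tested members (colored bars) and of all 14547 tested genes (grey bars) whose highest CPM was in that library. Right, count density of the non-coding gene divided by that of the coding gene, as the median of 250 opposite-strand pairs. Red bars are the Ang libraries and blue bars the Con libraries. Con replicate 2 has the largest member share (0.820%), holds the highest value of 54.5% of the members, and has the lowest strand ratio (23.2).

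Some promoters of each arm carry known stress response motifs. The genes were chosen by name for known roles in these responses, not by a motif search. Shares above those of all genes are therefore not independent support for the arms. The ER stress response element (ERSE), read as CCAAT and CCACG with 9 bases between them, is known as the site where the active form of ATF6 acts with NF-Y on chaperone genes, and ERSE-II is a shorter relative, read as ATTGG and CCACG with 1 base between them. Windows of 300 bases, from 250 before to 50 after each gene start in RefSeq on GRCh38.p14, were searched on both strands for 41 of the 47 members that had one. ERSE was found in 7 of 24 windows of the ER folding arm and in 0 of 17 of the ATF4 arm, against 0.0916% of all 27305 genes with a window. ERSE-II was found in 3 of 24 and 0 of 17, against 0.0696% of all genes. The stretches are shown because they mark which chaperone genes hold the element, 5′ to 3′ on the strand that reads the motif, with its fixed letters in capitals and 10 bases on each side.
HSPA5 (chr9:125241381-125241419, minus strand): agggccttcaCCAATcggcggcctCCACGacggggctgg
HSP90B1 (chr12:103930206-103930244, plus strand): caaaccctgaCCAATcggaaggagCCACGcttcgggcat
HSP90B1 (chr12:103930311-103930349, minus strand): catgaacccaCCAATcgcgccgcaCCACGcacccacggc
CALR (chr19:12938374-12938412, minus strand): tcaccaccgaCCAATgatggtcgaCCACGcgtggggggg
CANX (chr5:179698768-179698806, plus strand): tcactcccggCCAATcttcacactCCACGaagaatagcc
PDIA6 (chr2:10812843-10812881, minus strand): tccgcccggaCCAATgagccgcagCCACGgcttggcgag
CRELD2 (chr22:49918544-49918582, minus strand): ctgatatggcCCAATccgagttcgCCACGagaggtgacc
XBP1 (chr22:28800593-28800631, minus strand): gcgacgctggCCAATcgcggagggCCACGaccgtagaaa
HERPUD1, ERSE-II (chr16:56932015-56932045, plus strand): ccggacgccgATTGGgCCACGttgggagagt
SDF2L1, ERSE-II (chr22:21642104-21642134, minus strand): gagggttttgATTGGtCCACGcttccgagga
HYOU1, ERSE-II (chr11:119057370-119057400, plus strand): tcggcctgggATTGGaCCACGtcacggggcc
HYOU1, ERSE-II (chr11:119057264-119057294, plus strand): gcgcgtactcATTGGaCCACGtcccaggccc

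HYOU1 also held the one member match to the 8-letter element TGACGTGG, which XBP1 is known to bind, and this match overlapped its upstream ERSE-II. The C/EBP-ATF response element (CARE), TGATGNAA, through which ATF4 is known to act with C/EBP partners, was found in 6 of 17 windows of the ATF4 arm and in 1 of 24 of the ER folding arm, against 4.46% of all genes with a window. This form of the motif was chosen after a form with a closing T, TGATGNAAT, had matched 0 of the 41 members and 1.22% of all genes. The matches lay in ASNS, CHAC1, CEBPG, SLC1A5, SLC3A2 and SLC7A1, and in HERPUD1 of the ER folding arm. The 5 matches that lay before the gene start are shown in the same way.
ASNS (chr7:97872459-97872486, minus strand): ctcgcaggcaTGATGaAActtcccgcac
CHAC1 (chr15:40953252-40953279, minus strand): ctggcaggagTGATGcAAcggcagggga
CEBPG (chr19:33374061-33374088, plus strand): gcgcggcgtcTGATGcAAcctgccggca
SLC1A5 (chr19:46784894-46784921, minus strand): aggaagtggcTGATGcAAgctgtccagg
HERPUD1 (chr16:56931956-56931983, minus strand): gggcacgggcTGATGcAAcccgccgcgt
A match is a string of letters in this window and does not show that a factor binds there.

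Among the members, no difference between Ang and Con passed the test. The edgeR quasi-likelihood test, run on all 14547 tested genes with Benjamini-Hochberg adjustment, called 0 members and 0 genes (0% of all tested genes at an adjusted p under 0.05), and the smallest adjusted p was 0.999. Limma-voom and DESeq2 also called 0. At an unadjusted p under 0.05 there were 3 members of 44 (6.82%) and 494 of 14547 genes (3.4%), and each of these 3 members, PSPH, PSAT1 and DNAJB9, was lower in Ang, a direction that held 1.98% of all tested genes, with 1.42% higher in Ang. Limma-voom and DESeq2 counted 3 members each at that level.

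Most members had values in Ang and Con that lay close together. Changes of 2-fold or more, up or down, were outside the 95% confidence interval for 38 of the 44 tested members (86.4%, against 64.2% of all tested genes), and for each of the 21 members that averaged 50 CPM or more. At that level the same held for 3406 of 3408 tested genes. The log2 fold change, Ang minus Con, was above 0 for 16 and below 0 for 28 members, with a median of -0.07, where 49.2% of all tested genes were above 0 and their median was -0.01. That split rested on single Con libraries: 24 of the 44 were above 0 without Con replicate 2, and 10 without Con replicate 3. All 3 Ang libraries lay below all 3 Con libraries for 5 members (11.4%) and above them for 0, where the groups did not overlap for 8.16% of all tested genes, 4.54% with Ang lower and 3.62% with Ang higher. The 5 were DNAJB9, SYVN1, EDEM1, PSAT1 and PSPH, and under relative log expression scaling SYVN1 and EDEM1 overlapped.

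**Figure D2:**
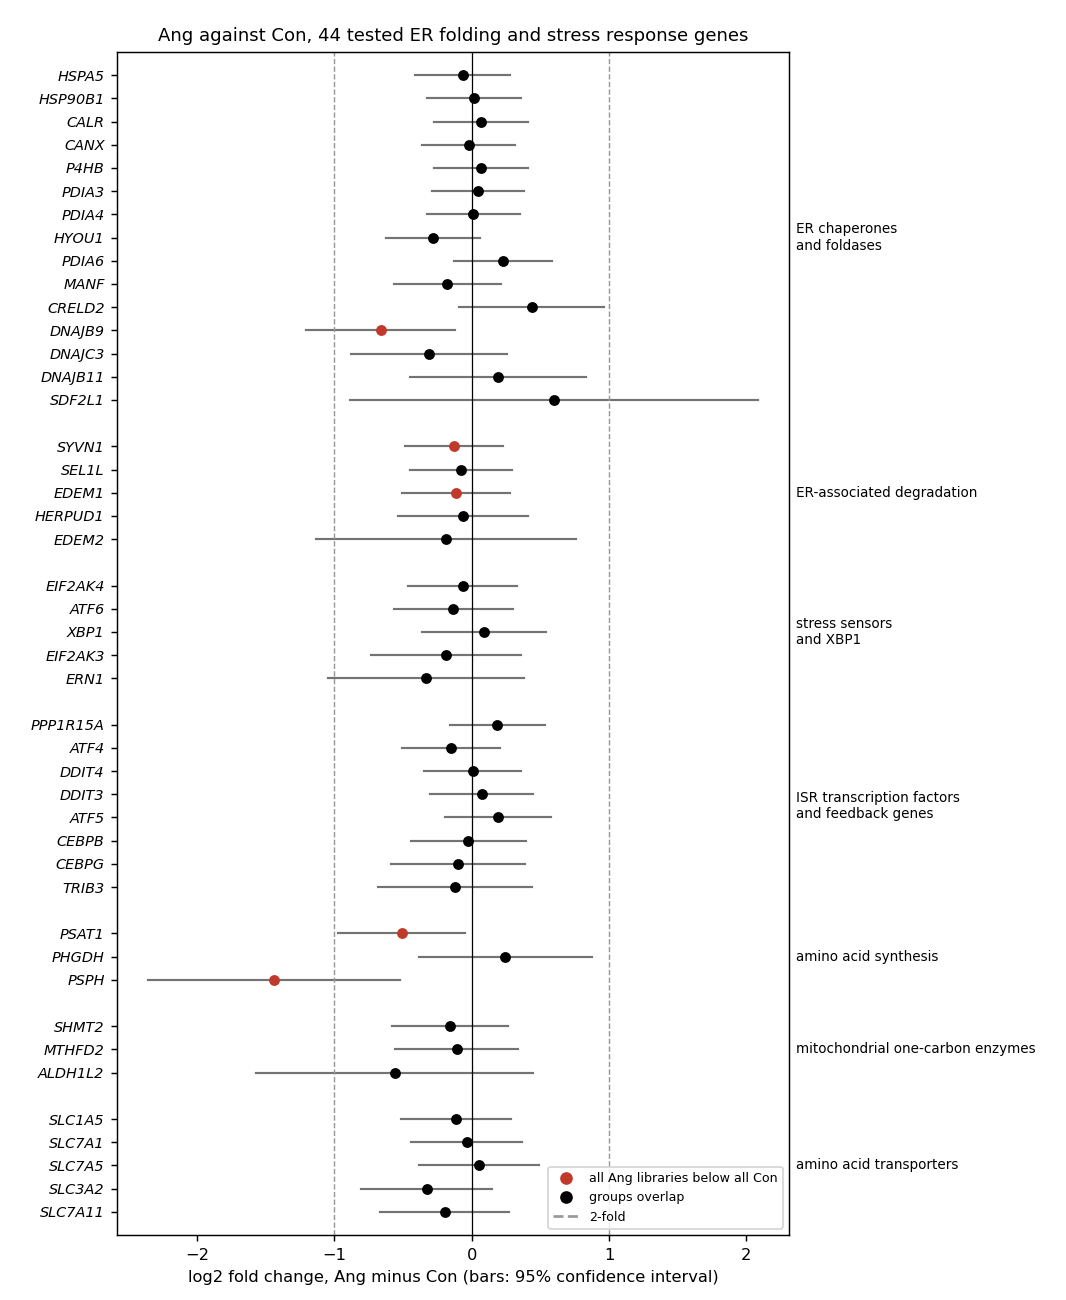
Log2 fold change, Ang minus Con, of the 44 tested members by set, with the 95% confidence interval as a bar and dashed lines at a 2-fold change. Red points are the 5 members whose Ang libraries all lay below all Con libraries. The intervals of 38 members stay within the dashed lines, and PSPH has the lowest estimate, at -1.44.

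The abundant chaperones carried most of the signal. The 15 chaperones and foldases held 79.3% of all counts of the 47 genes, and HSPA5, HSP90B1, CALR and CANX alone held 59.3%. HSPA5 (chromosome 9, 125234853 to 125241330), which encodes BiP, the HSP70 chaperone of the ER lumen and a keeper of the sensors' inactive state, had 1458, 1487 and 1452 CPM in Ang replicates 1 to 3, against 1557, 1634 and 1411 CPM in Con replicates 1 to 3. The Ang libraries lay within the range of the Con libraries, and the log2 fold change was -0.07 ± 0.18 (SE). Its whole promoter window is shown because HSPA5 is the classic ERSE gene and the most abundant member per length (chr9:125241294-125241593, minus strand, ERSE letters in capitals).
HSPA5 promoter: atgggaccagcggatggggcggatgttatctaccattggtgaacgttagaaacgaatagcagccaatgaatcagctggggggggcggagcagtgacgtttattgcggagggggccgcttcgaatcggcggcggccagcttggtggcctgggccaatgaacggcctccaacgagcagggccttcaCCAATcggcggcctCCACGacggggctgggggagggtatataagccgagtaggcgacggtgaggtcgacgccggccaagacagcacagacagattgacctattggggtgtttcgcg

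HSP90B1 (chromosome 12, 103930107 to 103953645), which encodes GRP94, the HSP90 of the ER, had similar values in all 6 libraries. It had 1120, 1170 and 1106 CPM in the Ang libraries, against 1133, 1143 and 1083 CPM in the Con libraries, and the log2 fold change was 0.02 ± 0.17, with values just below 0 without Ang replicate 2 or Con replicate 3. The lectin chaperones calreticulin and calnexin, which hold glycoproteins during folding, were also level between groups. CALR had 707, 805 and 814 CPM in Ang and 720, 848 and 650 CPM in Con, and CANX had 723, 710 and 698 CPM in Ang and 818, 695 and 652 CPM in Con. In both genes the Con libraries spanned a wider range than the Ang libraries.

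The protein disulfide isomerases, which form and rearrange disulfide bonds, were ordered P4HB, PDIA4, PDIA3 and PDIA6 per length. Their log2 fold changes were 0.07 ± 0.17, 0.01 ± 0.17, 0.05 ± 0.17 and 0.23 ± 0.18. PDIA6 had 121, 110 and 98.2 CPM in Ang, against 91.2, 108 and 80.2 CPM in Con, so that 2 Ang libraries lay above the highest Con library and the third lay within the Con range. HYOU1, a large HSP70-like chaperone that helps BiP release nucleotide, had 147, 191 and 175 CPM in Ang and 194, 243 and 184 CPM in Con, a log2 fold change of -0.28 ± 0.17 with overlap of the groups. CRELD2, an ER stress-inducible protein with isomerase activity, had 27.0, 32.02 and 24.3 CPM in Ang and 20.1, 16.4 and 25.8 CPM in Con (0.44 ± 0.27). MANF, a secreted ER stress-inducible factor, had 46.4, 63.3 and 65.3 CPM in Ang and 58.9, 79.3 and 59.4 CPM in Con (-0.18 ± 0.20).

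The J-domain co-chaperones, which direct BiP to its clients, did not move as a set. DNAJB9 (chromosome 7, 108569568 to 108574850), which encodes ERdj4, a known target of XBP1 and repressor of IRE1, had 17.3, 18.2 and 18.2 CPM in Ang, against 35.7, 24.7 and 24.5 CPM in Con. All Ang libraries lay below all Con libraries. The log2 fold change was -0.66 ± 0.27, with an unadjusted p of 0.0165 and an adjusted p of 0.999 by the edgeR quasi-likelihood test. Con replicate 1 was the farthest from Ang, and without it the value was -0.46 ± 0.31. DNAJC3, which encodes the PERK pathway inhibitor p58IPK, had -0.31 ± 0.29, and DNAJB11, which encodes ERdj3, had 0.19 ± 0.32. SDF2L1, a partner of ERdj3, had only 36 counts over the Ang libraries and 33 over the Con libraries, and the depth-scaled ratio of these sums was 1.392, where counting error alone spans 0.844 to 2.30 (exact 95% interval).

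The ER-associated degradation genes had 0 of 5 values above 0, with a median of -0.11, and none reached an unadjusted p under 0.05. SYVN1, which encodes the ubiquitin ligase HRD1, had 84.5, 91.3 and 82.3 CPM in Ang, against 94.6, 91.6 and 96.9 CPM in Con. EDEM1, which encodes a lectin that marks glycoproteins for disposal, had 59.9, 55.2 and 56.0 CPM in Ang, against 61.5, 60.35 and 63.5 CPM in Con. In both genes every Ang library lay below every Con library by TMM scaling, but the gaps were narrow and the log2 fold changes were -0.13 ± 0.18 and -0.11 ± 0.20. SEL1L, the membrane partner of HRD1, had 88.0, 64.3 and 69.3 CPM in Ang and 73.7, 91.5 and 68.3 CPM in Con, and its log2 fold change was -0.08 ± 0.19, or 0.06 ± 0.17 without Con replicate 2. HERPUD1, which encodes an ER membrane organiser of the HRD1 complex, spanned 27.2 to 40.5 CPM in Ang and 18.6 to 46.7 CPM in Con, and EDEM2 averaged 5.995 ± 2.03 CPM in Ang and 6.80 ± 3.29 CPM in Con (SD, n = 3 each).

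Counts of the sensors were low and overlapped between groups. ATF6, the membrane-bound transcription factor, had 42.0, 38.8 and 42.2 CPM in Ang and 47.3, 48.3 and 38.7 CPM in Con (-0.13 ± 0.22). EIF2AK4 had 48.7, 63.5 and 56.9 CPM in Ang and 72.4, 60.0 and 44.03 CPM in Con, and EIF2AK3 had 25.2, 25.0 and 12.7 CPM in Ang and 18.2, 25.9 and 28.0 CPM in Con. An antisense gene with 44.7% of its exon bases under EIF2AK3 held 3209 counts over all libraries, against 557 counts of EIF2AK3. The strand uncertainty given above covers this low count. With all libraries the log2 fold changes of EIF2AK4 and EIF2AK3 were -0.07 ± 0.20 and -0.19 ± 0.28. The sign changed in 2 of the fits that left out 1 library for EIF2AK4, and in 1 for EIF2AK3. ERN1 had 6.75, 14.6 and 9.24 CPM in Ang and 13.7, 14.2 and 10.7 CPM in Con (-0.33 ± 0.36), with an interval of -1.05 to 0.38 that reaches past a 2-fold decrease. XBP1, the factor made when IRE1 splices its messenger RNA, had 30.2, 44.6 and 42.2 CPM in Ang and 42.0, 34.99 and 33.0 CPM in Con (0.09 ± 0.23), and -0.02 ± 0.28 without Ang replicate 2.

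**Figure D3:**
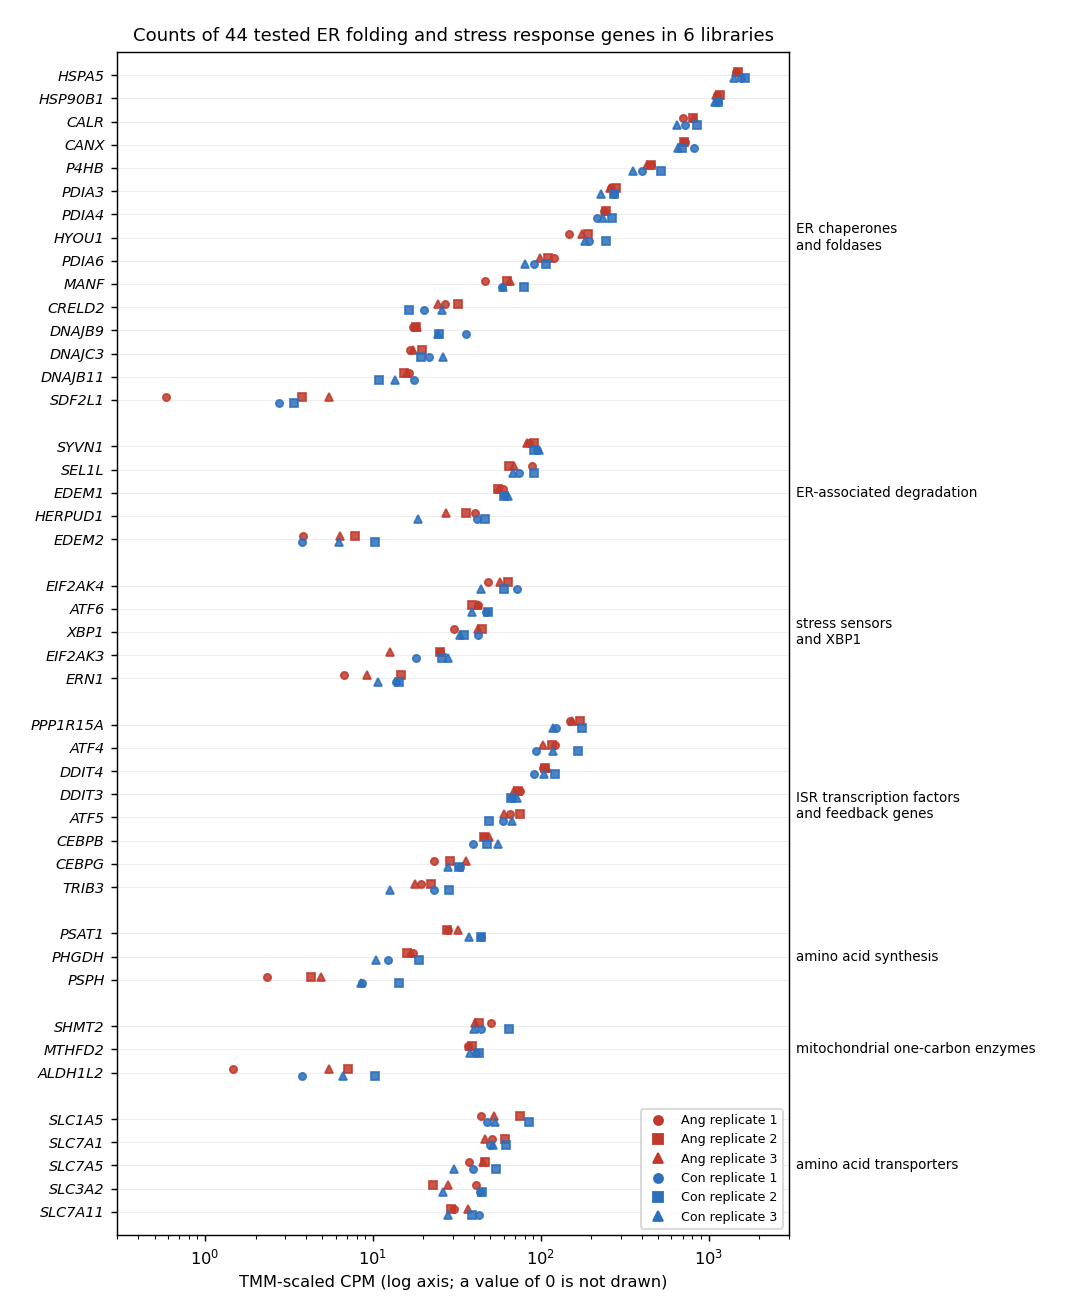
TMM-scaled CPM (log axis) of the 44 tested members in each library, grouped by set and ordered by mean within a set. Red symbols are Ang and blue symbols Con libraries, and circle, square and triangle stand for replicates 1, 2 and 3. The 1 value of 0, SDF2L1 in Con replicate 3, is not drawn. HSPA5 leads at 1411 to 1634 CPM, and most members show red and blue symbols in the same range.

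The transcription factors and feedback genes of the integrated stress response together had 4 tested members above 0 and 4 below 0, with a median of -0.01, and all 8 intervals lay within 2-fold. ATF4 (chromosome 22, 39519695 to 39522685) had 121, 117 and 103 CPM in Ang, against 93.8, 166 and 118 CPM in Con, with the Ang values inside the Con range (-0.15 ± 0.18). The direction rested on Con replicate 2, and without that library the value was 0.11 ± 0.15. DDIT3, which encodes the death-linked factor CHOP, had 74.8, 72.9 and 69.6 CPM in Ang and 67.6, 66.8 and 72.3 CPM in Con (0.07 ± 0.19). Exons on the other strand, most of them of the methionyl-tRNA synthetase gene MARS1, cover 31.6% of the DDIT3 exon bases. ATF5, an ATF4 relative, had 65.1, 74.9 and 60.1 CPM in Ang and 59.3, 49.4 and 67.6 CPM in Con (0.19 ± 0.20). CEBPB and CEBPG, dimer partners of ATF4, had -0.02 ± 0.21 and -0.10 ± 0.25.

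None of the feedback genes was called. PPP1R15A, which encodes GADD34, the subunit that directs a phosphatase to eIF2, had 150, 171 and 154 CPM in Ang, against 123, 175 and 118 CPM in Con (0.19 ± 0.18). Without Con replicate 2 its groups did not overlap and the value was 0.40 ± 0.14, with an adjusted p of 0.201 by the edgeR quasi-likelihood test. DDIT4, which encodes the mTOR inhibitor REDD1, had 103, 106 and 109 CPM in Ang and 91.0, 121 and 104 CPM in Con (0.01 ± 0.18). TRIB3, a pseudokinase that restrains ATF4, had 19.4, 22.2 and 17.9 CPM in Ang and 23.0, 28.2 and 12.6 CPM in Con. In each of these 3 genes the 3 Ang libraries fell within the Con range. CHAC1, a glutathione-degrading enzyme gene, and NUPR1, a stress-inducible chromatin protein gene, did not pass the low-count filter. CHAC1 had 9 counts over the Ang libraries and 7 over the Con libraries, and NUPR1 had 9 and 18, with depth-scaled ratios whose exact intervals, 0.544 to 5.18 and 0.253 to 1.496, include 1.

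The largest log2 fold change of the tested members was that of PSPH, a gene of serine synthesis. PSPH (chromosome 7, 56011051 to 56051604), which encodes phosphoserine phosphatase, the last step of serine synthesis, had 8, 17 and 17 counts in Ang replicates 1 to 3, against 41, 84 and 27 counts in Con replicates 1 to 3. Scaled to the libraries this was 2.35, 4.29 and 4.91 CPM in Ang, against 8.66, 14.2 and 8.49 CPM in Con, and every Ang library lay below every Con library. The log2 fold change was -1.44 ± 0.47, with an unadjusted p of 0.00219 and an adjusted p of 0.999 by the edgeR quasi-likelihood test. The 95% interval for PSPH alone was -2.36 to -0.52. Without Con replicate 2 the value was -1.14 ± 0.55. Reads of PSPH may be shared with its pseudogene PSPHP1, which had 16, 8 and 6 counts in Ang and 15, 21 and 19 counts in Con.

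PSAT1 (chromosome 9, 78297143 to 78330093), which encodes the preceding enzyme, phosphoserine aminotransferase, had 28.2, 27.7 and 32.1 CPM in Ang, against 43.7, 43.8 and 37.4 CPM in Con. The groups did not overlap, and the log2 fold change was -0.51 ± 0.24 (unadjusted p 0.0311, adjusted p 0.999, edgeR quasi-likelihood test). PHGDH, the entry enzyme of the same pathway, did not follow. It had 17.3, 15.9 and 16.8 CPM in Ang and 12.2, 18.9 and 10.4 CPM in Con (0.25 ± 0.32), so the Ang values lay inside the Con range. Without Con replicate 2 the PHGDH value was 0.55 ± 0.35. ASNS (chromosome 7, 97852118 to 97872542), which encodes asparagine synthetase, a textbook ATF4 target, had 0 counts in each Ang library, against 2, 15 and 3 counts in the Con libraries, and did not pass the filter. With 3 counts, the number a count of 0 allows, set over the Ang group, ASNS was at least 5.22-fold lower in Ang when the 20 Con counts are taken as exact. With counting error in both groups, the exact 95% interval of the depth-scaled ratio, Ang over Con, reached up to 0.259. Of its 20 counts 15 were in Con replicate 2. Without that library the bound was 2.28-fold when the 5 remaining Con counts are taken as exact, and no interval was computed for that case. These limits leave out the spread among the Con libraries.

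**Figure D4:**
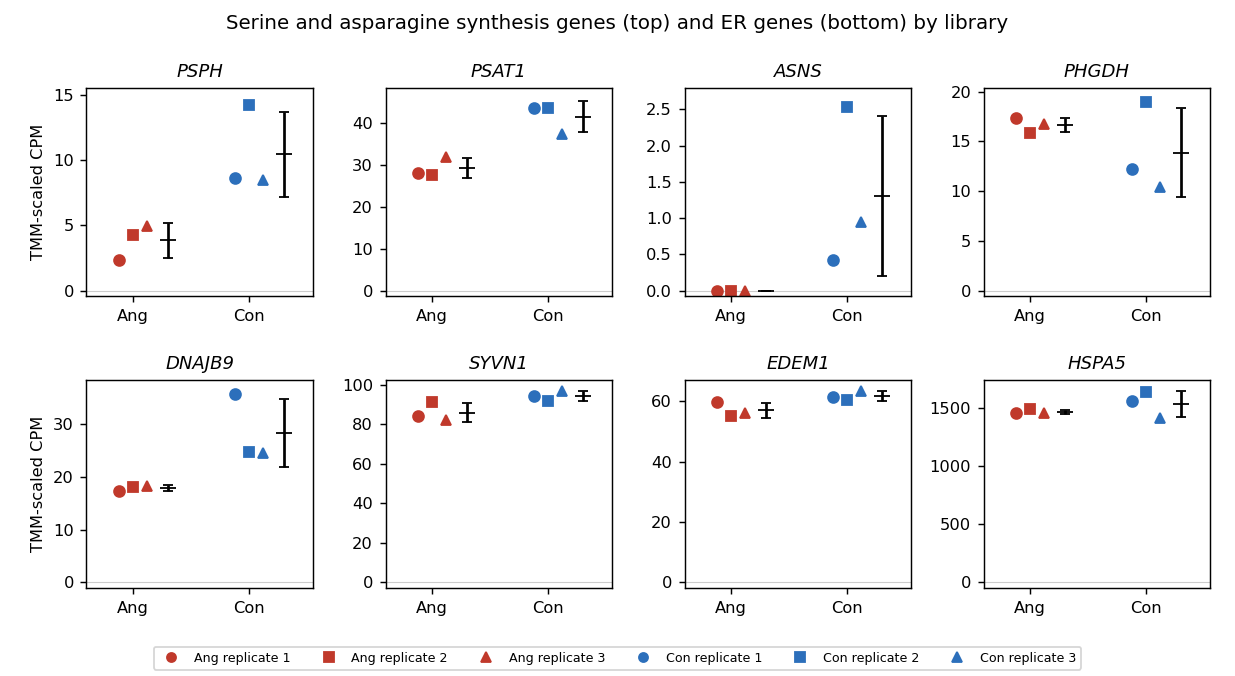
TMM-scaled CPM by library of 4 amino acid synthesis genes (top) and 4 ER genes (bottom), Ang left and Con right, with mean and SD of the 3 libraries as black bars. In PSPH, PSAT1, DNAJB9, SYVN1 and EDEM1 every Ang library lies below every Con library, while PHGDH and HSPA5 overlap. ASNS, which did not pass the filter, is at 0 in all Ang libraries and reaches 2.54 CPM in Con replicate 2. Its 0.422 CPM in Con replicate 1 is below the 0.756 to 0.880 CPM that a count of 0 allows in the Ang libraries.

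The mitochondrial folate enzymes, which take up the carbon unit that serine gives off, had 0 of 3 values above 0 and no member reached an unadjusted p under 0.05. SHMT2, the serine-cleaving enzyme gene, had 50.8, 42.9 and 40.4 CPM in Ang and 43.9, 64.6 and 40.3 CPM in Con (-0.16 ± 0.21), and the value was 0.08 ± 0.22 without Con replicate 2. MTHFD2 had 37.0, 38.8 and 37.3 CPM in Ang and 41.2, 42.6 and 38.1 CPM in Con (-0.11 ± 0.23), where 1 Ang library reached above the lowest Con library. ALDH1L2 had 1.47, 7.06 and 5.49 CPM in Ang and 3.80, 10.3 and 6.61 CPM in Con, and its interval, -1.57 to 0.45, reaches past a 2-fold decrease.

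The amino acid transporters overlapped between groups in all 5 genes, and all 5 intervals lay within 2-fold. SLC3A2, the heavy chain that carries SLC7A5 and SLC7A11 to the membrane, had 41.1, 22.9 and 28.0 CPM in Ang and 43.5, 44.8 and 26.1 CPM in Con (-0.33 ± 0.24). SLC7A11, the cystine importer of system xc-, had 30.2, 29.2 and 36.7 CPM in Ang and 42.7, 38.9 and 28.0 CPM in Con (-0.20 ± 0.24). The leucine importer gene SLC7A5 had 0.05 ± 0.22. SLC1A5, a glutamine transporter, had 44.3, 75.1 and 52.6 CPM in Ang and 47.7, 84.9 and 53.5 CPM in Con, and SLC7A1, an arginine and lysine transporter, had 51.3, 61.5 and 46.8 CPM in Ang and 49.8, 61.9 and 51.9 CPM in Con. In both, replicate 2 was the highest library of each group.

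Members grouped by promoter motif gave no called gene. The 10 genes with ERSE or ERSE-II had 6 log2 fold changes above 0 and 4 below 0, with a median of 0.04 and 0 of 10 with groups apart. The 5 tested genes with CARE had 0 above 0 and 5 below 0, from -0.33 to -0.04, with 0 of 5 with groups apart. Of all tested genes 49.2% were above 0 and 8.16% had groups apart. At that share, 0 of 10 and 0 of 5 say little about the motif genes. Without Con replicate 2 the values of SLC1A5 and SLC7A1 were above 0, at 0.19 ± 0.20 and 0.07 ± 0.20.

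Per length, the levels of the members spanned a wide range. The chaperones and foldases ran from rank 1 (HSPA5) to rank 41 of 47 (SDF2L1, 2.42 CPM per kilobase). Mean CPM per kilobase of exon was 384 for HSPA5, 279 for CALR and 240 for HSP90B1, then 115 for CANX, 81.8 for P4HB and 73.1 for PDIA4. DDIT3, DDIT4, PPP1R15A and ATF4 came next among the members after PDIA3, close together at 54.1, 51.4, 48.0 and 47.7 CPM per kilobase. Their group SDs reached 14.7 CPM per kilobase for ATF4 in Con, so these 4 neighbours do not differ beyond their spread. The 5 ER-associated degradation genes lay at 3.33 to 16.4, the sensors and XBP1 at 1.06 to 12.5, and ASNS was last at 0.146 CPM per kilobase. These levels carry the strand uncertainty given above, and several members can be set beside an annotated gene on the other strand.

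Some members had far fewer counts per base than a gene lying under them on the other strand. Exons of other-strand genes touched 22 of the 47 members, and 7 antisense genes had at least 50% of their exon bases under a member. Counts per base were higher in each of these 7 antisense genes than in its member, by 8.45 times for EDEM1 to 78.4 times for P4HB. Pairs with less overlap lay on both sides of 1. The ratio, other-strand gene over member, was 17.9 for an antisense gene of EIF2AK3 and 11.8 for ATP6V1C2 over PDIA6. It was 3.63 for UQCC6 over HSP90B1, and 0.634 for MARS1 over DDIT3. The antisense gene under P4HB, ENSG00000262831 (chromosome 17, 81843165 to 81843958), lies with all of its 529 exon bases under P4HB. It held 85257 counts over the 6 libraries, against 10898 counts in all 5303 exon bases of P4HB. By library it had 3665, 3525 and 3824 CPM in Ang and 3523, 2801 and 3866 CPM in Con, while P4HB had 450, 452 and 431 CPM in Ang and 398, 519 and 354 CPM in Con. The antisense gene was thus lowest in Con replicate 2 and highest in Con replicate 3, where P4HB was highest and lowest.

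The same mirror order appeared in other pairs. All 7 antisense genes were lowest in Con replicate 2, against 19.6% of all tested genes and 41.7% of those of at least 50 CPM. All 7 exceeded that level, and 6 of 7 were highest in Con replicate 3, against 29.5% of tested genes of at least 50 CPM. Of the 7 members above them, 6 were highest in Con replicate 2 and 4 lowest in Con replicate 3. Among all 44 tested members these shares were 54.5% and 38.6%. The ratio per base over all libraries was 42.4 for HYOU1, 39.8 for SLC7A5, 30.1 for SLC1A5, 17.2 for CALR and 16.1 for SHMT2. None of the 7 antisense genes was called between Ang and Con, 4 had log2 fold changes above 0 and 3 below 0, and they ran from -0.22 ± 0.18 for the one under SHMT2 to 0.11 ± 0.18 for the one under P4HB. With the counts of each pair summed, 0 members were called, and SHMT2 joined the genes whose groups did not overlap while EDEM1 left them. PSPH, PSAT1 and ASNS have no exon base under an annotated exon of the other strand, and DNAJB9 has 6.45%. The strand uncertainty covers these genes too, and whether a lack of overlap lessens it was not tested.

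**Figure D5:**
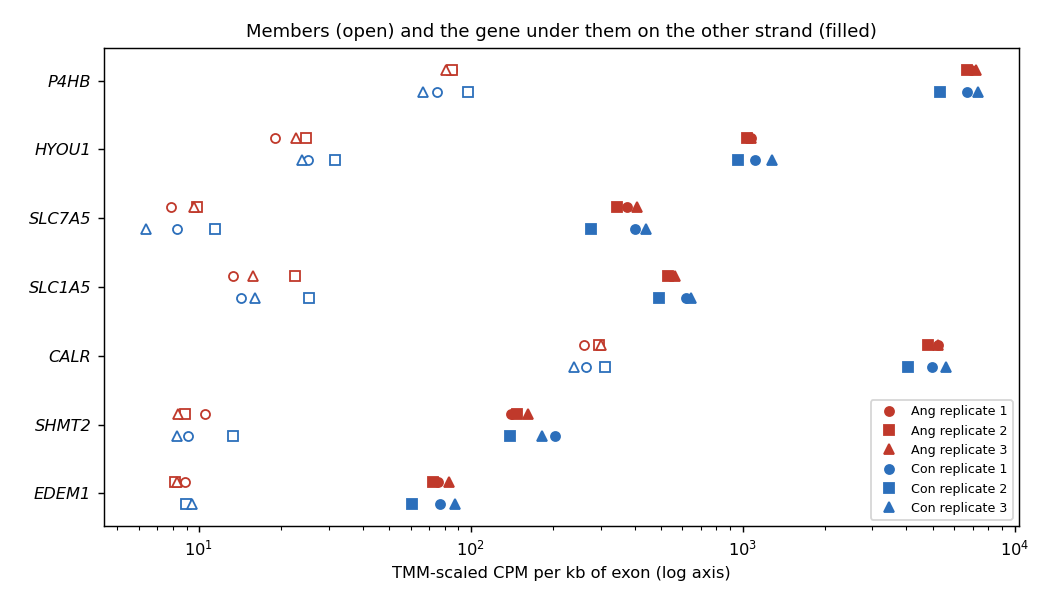
TMM-scaled CPM per kilobase of exon (log axis) for 7 members (open symbols) and for their antisense genes (filled symbols), by library. Red symbols are Ang and blue symbols Con, with circle, square and triangle for replicates 1, 2 and 3. In every pair the filled symbols lie to the right, and the filled blue square, Con replicate 2, is the leftmost filled symbol.

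Other genes of the pathway, taken from 4 lists of 79 genes, are given for comparison. None of the 76 tested was called, 34 had log2 fold changes above 0 and 42 below 0, with a median of -0.02, and 69 intervals lay within 2-fold. In the translocation and signal peptidase list, with 6 of 16 above 0, the lowest p values were those of the translocon-associated subunits SSR1 (-0.24 ± 0.18) and SSR3 (0.23 ± 0.19). In the glycosylation and oxidative folding list, with 11 of 19 above 0, they were those of the glycosyltransferase subunit RPN1 (0.30 ± 0.19) and the ER reductase DNAJC10 (-0.27 ± 0.18). In the further degradation genes, with 6 of 14 above 0, SELENOS, a partner of the p97 ATPase, had 31.4, 8.57 and 12.1 CPM in Ang and 27.5, 25.9 and 23.3 CPM in Con (-0.57 ± 0.29). In the further signalling genes, with 11 of 27 above 0, ATF3 had 0.42 ± 0.36 and SESN2 had -0.46 ± 0.47.

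Markers of the labelled cell line were mostly present. Mesenchymal and basal markers summed to 2953 to 3121 CPM in Ang and 2384 to 3164 CPM in Con, led by VIM and CD44, with 8 of 9 tested log2 fold changes above 0 and the Con extremes again in replicates 2 (highest) and 3 (lowest). SPARC was near 0. Of 10 luminal and epithelial markers 5 passed the filter (KRT19, ERBB2, CLDN4, EPCAM and GATA3), and ESR1, PGR and CDH1 were near 0. KRT19 averaged 117 ± 24.2 CPM in Ang and 99.9 ± 28.7 CPM in Con (SD, n = 3 each), and ERBB2 averaged 103 ± 16.1 CPM in Ang and 107 ± 18.03 CPM in Con (SD, n = 3 each). Of 11 cardiomyocyte markers 7 were matched, 1 passed the filter (NPPA), and the 7 summed to 7.82 to 13.9 CPM in Ang and 7.39 to 19.2 CPM in Con.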

How the data were processed

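Per the labels' protocols, poly-T beads captured the messenger RNA, and libraries were amplified in 15 PCR cycles. The authors deposited 1 table of raw read counts for each library, with Ensembl IDs. HTSeq 0.9.1, DESeq 1.39.0 and build GRCh38 are named in the submitters' processing notes, while aligner, annotation release and strand setting were not given in the sources used here. From these counts, genes were kept by filterByExpr, libraries were scaled by TMM (trimmed mean of M values), and Ang and Con were compared by edgeR 4.0.16 in R 4.3.3 (robust quasi-likelihood fit), with p-values adjusted by the Benjamini-Hochberg method over all tested genes at a threshold of 0.05. CPM are TMM scaled, fold changes are log2, Ang minus Con, ± SE, and intervals are at 95%. Totals of 3369212 to 5437190 counts make 3 counts, the number a count of 0 allows, 0.507 to 0.944 CPM. Without molecular identifiers PCR copies are not told from molecules, so such limits and the exact binomial intervals cover counting error only. No library repeated another: counts of 2 libraries in a group differed by a chi-square of 3.65 or more per gene.

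Exon overlap was taken from GENCODE 29 on GRCh38 with bedtools 2.31.1. Strand ratios used non-coding genes with at least 90% of exon bases under 1 coding gene of at least 300 counts. Promoter sequences are from RefSeq on GRCh38.p14. The fits were tested on simulated counts. The members, their sets and the lists were chosen with earlier results of these data known. By rule, values were given for the 2 most abundant members of each set, the 2 with the smallest p, those with groups apart and HSPA5, XBP1, ATF4 and DDIT3, 26 in all; values of other members were added after they were seen. For the other pathway lists, values were given for the 2 genes of each with the smallest p, of which 1 is not reported here. Alternatives were RLE scaling, other filters, DESeq2 1.42.0, limma-voom (limma 3.58.1), a replicate block, summing with other-strand genes and leaving out each library.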

Additional observations from a re-analysis of the deposited data

How the results depend on the processing

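No member was called under any alternative: RLE scaling, DESeq2, limma-voom, all genes kept, only genes at 1 CPM or more in 3 libraries, a replicate block, counts summed with other-strand genes, and each library left out. Genes called over the whole table numbered 0 to 40 when 1 library was left out, with 40 without Con replicate 2 (0.269% of genes) and 1 without Con replicate 1, and 0 otherwise. Members above 0 numbered 10 to 24 of 44 over the libraries left out (10 without Con replicate 3, 24 without Con replicate 2), and 16 or 17 under the other settings. Members within 2-fold numbered 35 to 38 in all settings. Members whose groups did not overlap numbered 3 under RLE scaling, 5 or 6 under the other settings with all libraries, and 6 to 16 when 1 library was left out, where fewer libraries make separation easier and the share of all tested genes was 15.6% to 27.3%. Of the alternative values of the named members, 324 kept their direction and 14, none of them called, changed sign. Deviations from the group means correlated at 0.037, 0.068 and 0.036 between libraries sharing a number and at -0.07 to 0.03 between the rest. The values for shared numbers were the highest but small. With 3 libraries a group they cannot decide whether numbers pair the libraries, and no label says so. With the replicate block, 0 members and 0 genes were called, and 17 members were above 0. The cause of these shifts was not tested. Depth limits the low members: of 6 intervals that reach past 2-fold, those of EDEM2, ERN1, ALDH1L2 and SDF2L1 include 0, and those of DNAJB9 and PSPH do not.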
